A study of Homo sapiens with 6 samples.

Results

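The prolactin receptor and its JAK-STAT5-SOCS signalling chain were followed through 10 genes: the receptors PRLR and GHR, the kinases JAK1 and JAK2, the transcription factors STAT5A, STAT5B and STAT3, and the inhibitors SOCS1, SOCS2 and SOCS3. They were taken by gene symbol from the 58735 genes of the deposited count table, each symbol matching 1 row, and 9 of the 10 had enough reads to be among the 17337 genes tested. The RNA came from T47D, a luminal breast cancer cell line of human origin known for its estrogen, progesterone and prolactin receptors, in 3 libraries of exposed cells (coded CQ) and 3 control libraries (coded CK). The subject named in the title of the series is PM2.5, the fine particles of polluted air. The design text calls the CQ group only an experimental treatment, so reading it as PM2.5 exposure rests on that title and on the RNA extraction protocol, which names 48 h of exposure in the same words for both groups. All 6 libraries come from this single cell line, with no genetic change named, and neither the dose nor the handling of the control cells was available from the labels. The labels call the replicates biological without naming separate cultures, so p-values set the difference against the spread between these samples only.

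Prolactin signals through PRLR, a cytokine receptor without a kinase domain of its own. Hormone binding activates the receptor-bound kinase JAK2, which phosphorylates STAT5A and STAT5B. These enter the nucleus and bind GAS elements near target genes. GHR, the growth hormone receptor, uses the same kinase and the same STAT5 proteins. JAK1 and STAT3 serve, among others, the receptors that share the gp130 subunit, such as that for interleukin 6, and JAK1 also serves interferon receptors. The SOCS proteins and their relative CISH are made in response to STAT activity and shut the receptors off. In the mammary gland this chain drives milk protein synthesis, and breast cancer cells of the luminal type often retain the receptor. Because STAT proteins are switched by phosphorylation, their RNA levels do not show how active they were.

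Exposed cells had less PRLR, GHR, JAK1 and SOCS3 RNA than control cells and more STAT5A and STAT3 RNA, while JAK2, STAT5B and SOCS1 did not pass the test. Of the 9 tested genes 6 passed edgeR's quasi-likelihood test (adjusted p under 0.05 over all tested genes), 2 higher and 4 lower, in a comparison in which 43.9% of all tested genes passed, 21.8% higher and 22.1% lower. PRLR fell by 55.2% and GHR fell by 52.3%, more than the other 7 tested genes. A change of at least 1.5-fold that passed the test was seen in PRLR, GHR, JAK1 and SOCS3, 4 of the 9 genes, against 20.2% of all tested genes. A fall to below 0.5 of the control level that passed the test was recorded for 5.56% of tested genes. The median log2 fold change was 0.01 over the 9 genes and -0.02 over all tested genes. Exposed and control values were fully apart for 6 of the 9 genes, as they were for 51.9% of all tested genes.

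Sequences upstream of 4 of these genes and of CISH are shown because these are the 4 members that fell and the STAT5-induced member of the SOCS family that fell with them. Each is RefSeq sequence (build GRCh38.p14) from the 250 bases before the most upstream RefSeq transcription start within 1000 bases of the gene's 5′ end, without bases that lie inside the gene as the count table bounds it. The strand is that of the gene. Capitals mark matches to the GAS element, spelled TTCNNNGAA, and to GCGTG, the core of the element bound by the aryl hydrocarbon receptor (AhR), on either strand.
PRLR, chr5:35230590-35230737, minus strand: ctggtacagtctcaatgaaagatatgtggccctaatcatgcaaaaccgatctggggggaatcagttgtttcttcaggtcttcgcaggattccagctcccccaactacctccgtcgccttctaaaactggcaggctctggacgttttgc
GHR, chr5:42423189-42423438, plus strand: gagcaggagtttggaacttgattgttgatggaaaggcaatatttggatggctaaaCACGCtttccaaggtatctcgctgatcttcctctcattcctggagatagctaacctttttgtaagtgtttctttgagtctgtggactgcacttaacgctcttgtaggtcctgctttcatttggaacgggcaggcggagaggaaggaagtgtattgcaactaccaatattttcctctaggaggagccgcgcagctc
JAK1, chr1:64966937-64967186, minus strand: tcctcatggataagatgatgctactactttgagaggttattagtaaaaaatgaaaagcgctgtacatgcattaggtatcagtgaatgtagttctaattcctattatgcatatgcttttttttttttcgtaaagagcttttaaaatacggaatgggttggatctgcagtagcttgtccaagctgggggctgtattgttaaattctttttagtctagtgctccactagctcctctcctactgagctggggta
SOCS3, chr17:78360926-78361175, minus strand: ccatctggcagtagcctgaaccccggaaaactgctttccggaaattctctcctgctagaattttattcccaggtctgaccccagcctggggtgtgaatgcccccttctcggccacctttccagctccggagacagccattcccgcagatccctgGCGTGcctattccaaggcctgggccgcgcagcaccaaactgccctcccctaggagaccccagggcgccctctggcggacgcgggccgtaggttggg
CISH, chr3:50611832-50612024, minus strand: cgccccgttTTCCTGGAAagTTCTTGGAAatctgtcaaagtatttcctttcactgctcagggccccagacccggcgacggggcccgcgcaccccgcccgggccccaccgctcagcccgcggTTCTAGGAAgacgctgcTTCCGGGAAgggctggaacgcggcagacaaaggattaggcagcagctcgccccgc

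CISH held 4 GAS matches that do not overlap each other, between 241 and 104 bases upstream of its RefSeq start. Of 35116 RefSeq windows of 250 bases, 6.57% held at least 1 GAS match and 5 windows (0.0142%) held 4 or more. The cut of 4 is the number held by CISH itself, which was picked as a STAT5-induced gene, so this share is no test. Of the 24 RefSeq windows of 9 members, 1 held a GAS match, upstream of 1 of the 7 RefSeq starts of GHR. The AhR core was held by 11 of them and is present in 32.2% of all windows. Windows of nearby RefSeq starts can overlap, and an AhR core upstream of JAK2 was counted in each of its overlapping windows. Neither motif overlapped the other in the windows shown. Neither window of PRLR held either motif. For SOCS3, 1 RefSeq start lay 848 bases upstream of the gene's 5′ end and the other lay inside the gene. The bases directly upstream of that 5′ end were in no SOCS3 window and were not searched. These letter matches describe the windows and show no binding. No window for SOCS2 was used here.

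**Figure D1:**
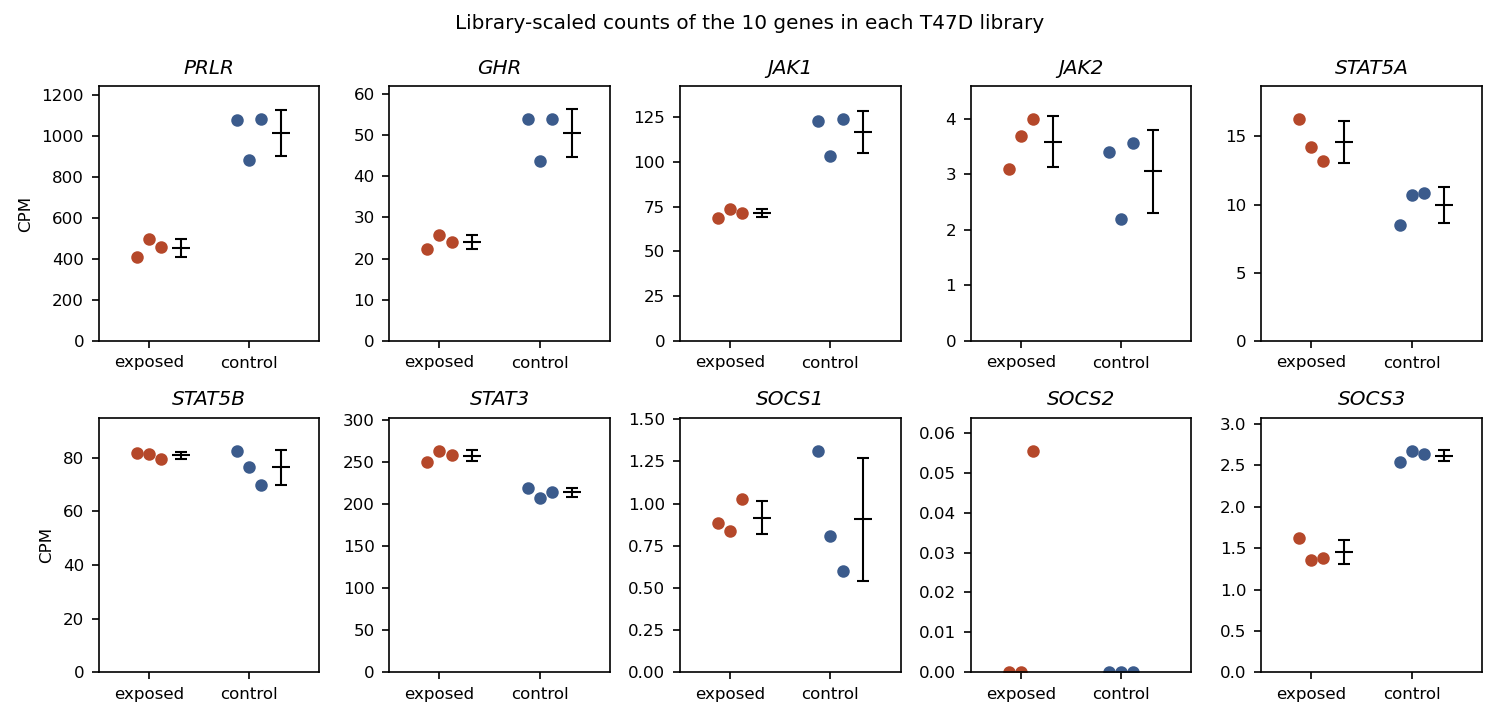
Library-scaled counts (CPM) of the 10 genes in each library, exposed on the left (red) and control on the right (blue) of each panel, each axis starting at 0; bars give the mean and SD of 3 libraries and are left out for SOCS2, which was not tested. In the panels of PRLR, GHR, JAK1 and SOCS3 every exposed library lies below every control library. In those of STAT5A and STAT3 every exposed library lies above.

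PRLR (ENSG00000113494, chromosome 5, 35048756 to 35230589, minus strand) had 407, 494 and 459 CPM in exposed replicates 1 to 3, against 1076, 883 and 1080 CPM in control replicates 1 to 3, where CPM are counts scaled to library size. All 3 exposed libraries lay far below the lowest control library, control replicate 2. The means were 453 ± 44.2 CPM in exposed cells and 1013 ± 113 CPM in control cells (SD, n = 3 each). The log2 fold change was -1.16 ± 0.09 (SE; edgeR quasi-likelihood test, Benjamini-Hochberg adjusted p = 2.3e-12). In bulk RNA of this kind, fewer cells with a transcript and less of it per cell cannot be told apart. Averaged over exposed and control libraries together, its level per length exceeded that of 95.5% of tested genes.

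GHR (ENSG00000112964, chromosome 5, 42423777 to 42721878, plus strand), the other hormone receptor of the set, had 22.4, 25.8 and 24.1 CPM in exposed libraries and 53.9, 43.8 and 53.9 CPM in control libraries. The groups did not overlap, and control replicate 2 was again the lowest control. The log2 fold change was -1.07 ± 0.10 (SE; edgeR quasi-likelihood test, adjusted p = 1.0e-10). PRLR made up 90.5% ± 0.261 of the summed PRLR and GHR level per length in exposed cells and 91.0% ± 0.0406 in control cells (SD, n = 3 each). The exposed shares all lay just below the control shares, and the ratio of PRLR to GHR was 9.47 ± 0.282 in exposed cells and 10.1 ± 0.0503 in control cells, a difference that was not tested.

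Among the 4 tested genes whose profile over the 6 libraries lay nearest to that of PRLR, by Euclidean distance between centred log2 CPM values, were LNPEP, EHF and FZD4, at distances of 0.101, 0.104 and 0.125. LNPEP, a membrane aminopeptidase, averaged 45.4 ± 5.99 CPM in exposed cells and 98.0 ± 9.31 CPM in control cells (SD, n = 3 each). EHF, an epithelial ETS transcription factor, averaged 116 ± 9.63 CPM in exposed cells and 257 ± 27.1 CPM in control cells. FZD4, a Wnt receptor, was at 16.6 ± 1.39 CPM in exposed cells and 36.6 ± 5.40 CPM in control cells. Each of these 3 genes shared with PRLR the fall and the low value in control replicate 2, a likeness set by the way they were picked.

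JAK1 (ENSG00000162434, chromosome 1, 64833229 to 64966504, minus strand), the kinase bound to gp130 and to interferon receptors, had 68.9, 73.6 and 71.5 CPM in exposed libraries and 123, 103 and 124 CPM in control libraries. The exposed libraries were close together and below every control library. The log2 fold change was -0.71 ± 0.08 (SE; edgeR quasi-likelihood test, adjusted p = 1.3e-08): JAK1 fell by 38.8%.

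JAK2 (ENSG00000096968, chromosome 9, 4984390 to 5128183, plus strand), the kinase that PRLR and GHR use, was a low transcript, with 105, 114 and 144 reads in exposed libraries and 127, 76 and 130 reads in control libraries. In CPM this was 3.09, 3.68 and 3.99 in exposed libraries and 3.40, 2.19 and 3.57 in control libraries. The groups overlapped. The log2 fold change of 0.23 had a 95% interval of -0.19 to 0.65 (edgeR quasi-likelihood test, adjusted p = 0.38), so a change of this kinase was not detectable at this depth, and the interval does not exclude a rise. Per length, JAK1 exceeded JAK2 by 19.6 ± 2.13 times in exposed cells and 38.4 ± 6.65 times in control cells (SD, n = 3 each).

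STAT5A (ENSG00000126561, chromosome 17, 42287547 to 42311943, plus strand) had 16.2, 14.2 and 13.2 CPM in exposed libraries and 8.47, 10.7 and 10.8 CPM in control libraries. Every exposed library was above every control library, the log2 fold change being 0.55 ± 0.12 (SE; edgeR quasi-likelihood test, adjusted p = 0.00066), a rise of 45.9%. STAT5B (ENSG00000173757, chromosome 17, 42199168 to 42276707, minus strand), the neighbouring paralog with a closely related protein, had 81.9, 81.5 and 79.4 CPM in exposed libraries and 82.6, 76.6 and 69.9 CPM in control libraries. These groups overlapped, and the log2 fold change of 0.08 had a 95% interval of -0.08 to 0.25 (edgeR quasi-likelihood test, adjusted p = 0.41).

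STAT5A made up 18.2%, 16.4% and 15.7% of the summed STAT5A and STAT5B level per length in exposed libraries and 10.3%, 13.5% and 14.8% in control libraries. The exposed shares lay above the control shares, by a small margin between exposed replicate 3 and control replicate 3, and this difference was not tested. STAT5B was the more abundant of the pair in all 6 libraries. The paralogs share sequence: 6.14% of the 100-base windows of annotated STAT5A transcripts and 5.67% of those of STAT5B also occur in the other gene, and the authors' handling of reads from such windows is not known from the labels. No 100-base window of the other 8 genes occurred, in the same direction, in annotated transcripts of any other gene. Matches to the opposite strand were not searched.

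STAT3 (ENSG00000168610, chromosome 17, 42313324 to 42388568, minus strand), which lies next to STAT5A and is the main effector of interleukin 6 family receptors, had 251, 263 and 258 CPM in exposed libraries and 219, 208 and 215 CPM in control libraries. The groups were tight and apart, with a log2 fold change of 0.27 ± 0.07 (SE; edgeR quasi-likelihood test, adjusted p = 0.0029). The rise was 20.4%, the smallest of the 6 changes that passed.

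SOCS3 (ENSG00000184557, chromosome 17, 78356778 to 78360077, minus strand), an inhibitor of JAK kinases and of gp130 receptors, had 55, 42 and 50 reads in exposed libraries and 95, 93 and 96 reads in control libraries. In CPM this was 1.62, 1.36 and 1.39 in exposed libraries and 2.55, 2.68 and 2.63 in control libraries. The groups did not overlap, and the log2 fold change was -0.85 ± 0.24 (SE; edgeR quasi-likelihood test, adjusted p = 0.0046).

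SOCS1 (ENSG00000185338, chromosome 16, 11254405 to 11256200, minus strand), which binds and inhibits JAK kinases, had 30, 26 and 37 reads in exposed libraries and 49, 28 and 22 reads in control libraries. The control libraries spread more widely than the groups differed. Its log2 fold change of 0.01 had a 95% interval of -0.73 to 0.76 (edgeR quasi-likelihood test, adjusted p = 0.98), too wide to say more than that no change was detectable at this depth. Its direction turned when single libraries were left out: the log2 fold change was -0.21 without control replicate 3, -0.06 without control replicate 2 and -0.06 without exposed replicate 3. SOCS1 lies inside RMI2, a gene of the opposite strand with 902 to 1752 reads per library that fell (log2 fold change -0.56; edgeR quasi-likelihood test, adjusted p = 6e-06), and since the labels name no strand setting, reads of the pair may have been mixed.

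SOCS2 (ENSG00000120833, chromosome 12, 93569814 to 93583487, plus strand), a STAT5-induced inhibitor of growth hormone signalling, had 0, 0 and 2 reads in exposed libraries and 0, 0 and 0 in control libraries, and was not tested. A count of 0 allows up to 3 reads, or 0.0804 to 0.0969 CPM in these libraries, so any SOCS2 RNA was below that level in the 5 libraries without a read. This limit covers counting error only.

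**Figure D2:**
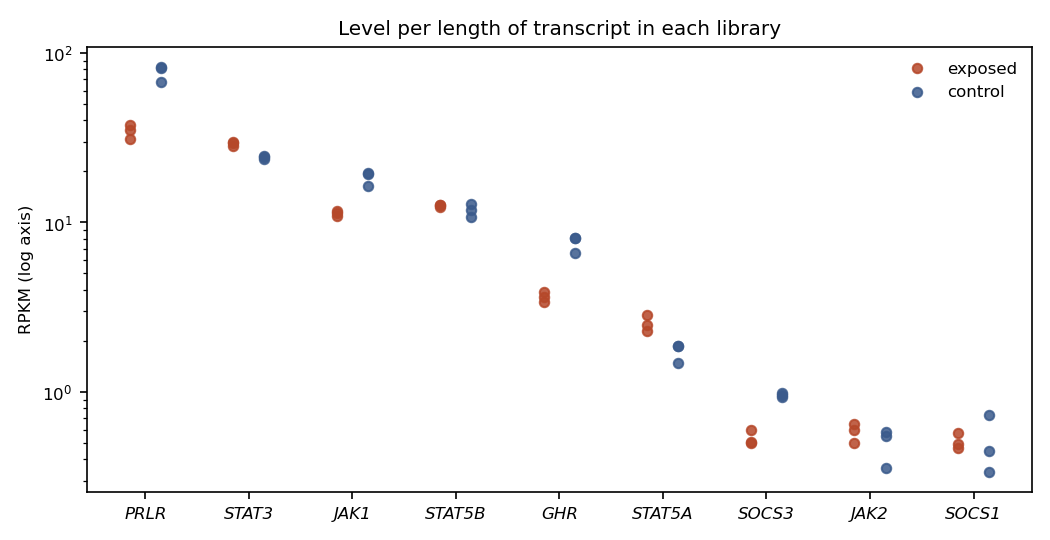
Level per length (RPKM, log axis) of 9 genes in each library, ordered by their mean over the 6 libraries, exposed in red on the left and control in blue on the right of each gene; SOCS2, with 2 reads in all, is not drawn. PRLR leads in both groups, and JAK1 lies below STAT5B in exposed libraries and above it in control libraries.

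Set per length, as RPKM (CPM per kilobase of exon), PRLR was the highest of the 10 genes at 34.6 ± 3.37 RPKM in exposed cells and 77.3 ± 8.60 RPKM in control cells (SD, n = 3 each). STAT3 came next, at 28.4 to 29.9 RPKM in exposed libraries and 23.6 to 24.8 RPKM in control libraries. The margin of PRLR over STAT3 was thus much narrower in exposed cells, though their libraries did not overlap in either group. JAK1 and STAT5B changed places: JAK1 lay at 10.9 to 11.7 RPKM, below STAT5B at 12.3 to 12.7 RPKM, in exposed libraries, and at 16.3 to 19.6 RPKM, above STAT5B at 10.8 to 12.8 RPKM, in control libraries. GHR and then STAT5A followed in both groups without overlap of neighbours. SOCS3 and JAK2 overlapped in exposed libraries, and SOCS3 lay above JAK2 in control libraries. JAK2 and SOCS1 overlapped in both groups.

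**Figure D3:**
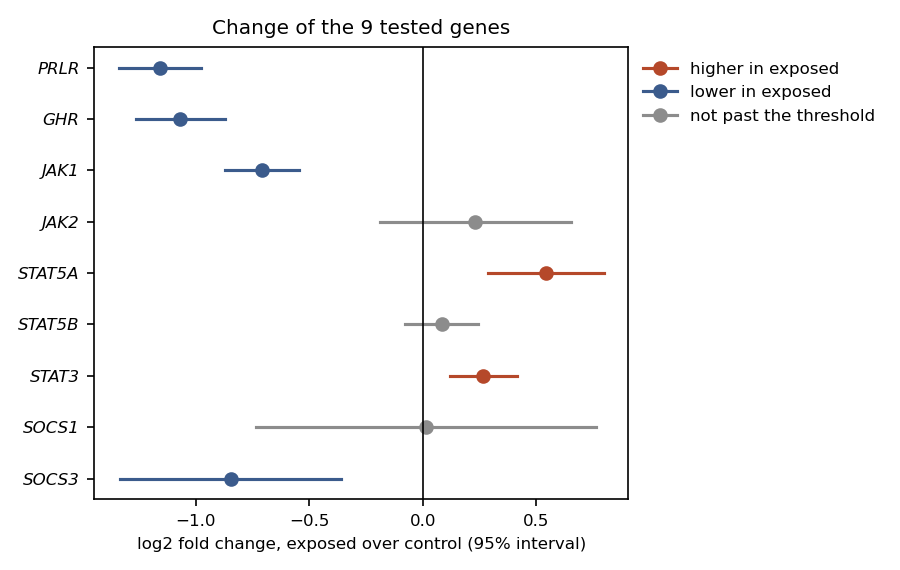
Log2 fold change, exposed over control, of the 9 tested genes with its 95% interval, red for genes higher in exposed cells, blue for genes lower in exposed cells and grey for genes that did not pass the test. The intervals of PRLR and GHR lie around -1, those of STAT5A and STAT3 above 0, and those of JAK2, STAT5B and SOCS1 include 0.

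Around these genes, 9 lists covered the rest of the pathway, with 90 distinct genes of which 71 were tested. Of these, 19 were higher and 20 lower in exposed cells (54.9%), against 43.9% of all tested genes, and the median log2 fold change was -0.003. The lists were compared by counts and medians alone, and were chosen with earlier results of these data known.

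Hormone ligands were all but absent. PRL itself, the prolactin gene, and GH1, GH2 and CSH1 had no read in any library, CSH2 had 2 reads in control replicate 3, and CSHL1 had 2 reads in each of exposed replicate 2 and control replicate 2. Of 6 cytokine ligands that act through gp130, 4 were tested and CLCF1 alone passed (25%), against 43.9% of all tested genes. CLCF1 had 3.07 ± 0.241 CPM in exposed cells and 2.08 ± 0.445 CPM in control cells (SD, n = 3 each; edgeR quasi-likelihood test, adjusted p = 0.042). Its call ended without exposed replicate 1 (adjusted p = 0.10), exposed replicate 2 (0.079), control replicate 1 (0.07) or control replicate 2 (0.18), and also under DESeq2 (0.052) and with no low-count filter (0.059). The log2 fold change ranged from 0.40 to 0.70 over all alternatives.

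Other cytokine receptors passed in both directions, with 4 of 16 tested genes higher and 6 lower (62.5%), against 43.9% of all tested genes. IL6ST, which encodes gp130, had 70.8, 75.3 and 74.1 CPM in exposed libraries and 286, 237 and 278 CPM in control libraries, a log2 fold change of -1.86 ± 0.08 (SE). IL6R, the subunit that binds interleukin 6 and pairs with gp130, went the other way, with 73.8, 75.2 and 72.1 CPM in exposed libraries and 25.2, 21.6 and 23.5 CPM in control libraries, a log2 fold change of 1.65 ± 0.09 (SE). Both passed edgeR's quasi-likelihood test, with adjusted p = 2.2e-18 for IL6ST and 3.2e-16 for IL6R, and neither overlapped between groups. The erythropoietin receptor EPOR, which like PRLR signals through JAK2 and STAT5, averaged 23.9 ± 1.22 CPM in exposed cells and 14.5 ± 0.766 CPM in control cells (SD, n = 3 each; adjusted p = 7.9e-07). The interleukin 4 receptor IL4R averaged 6.35 ± 0.448 CPM in exposed cells and 10.3 ± 0.504 CPM in control cells (adjusted p = 7.9e-05). Also called, and named after their values were seen, were IFNGR1 and CNTFR, higher, and IFNAR1, OSMR, IL13RA1 and LEPR, lower. The call of CNTFR ended without exposed replicate 1 (adjusted p = 0.12), exposed replicate 3 (0.11), control replicate 2 (0.053) or control replicate 3 (0.28), and that of LEPR without exposed replicate 2 (0.089), exposed replicate 3 (0.094) or control replicate 3 (0.29). Under DESeq2 neither CNTFR (0.057) nor LEPR (0.054) passed, and LEPR did not pass under limma-voom (0.056). OSMR did not pass without exposed replicate 2 (0.055), nor IL13RA1 without exposed replicate 3 (0.071) or control replicate 3 (0.076). The changes of PRLR and GHR thus stood in a receptor family in which some members rose and others fell.

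Among the remaining JAK and STAT genes, JAK3, a kinase known mainly from lymphoid cells, was higher in exposed cells at 26.1 ± 1.35 CPM, against 21.3 ± 2.92 CPM in control cells (SD, n = 3 each; edgeR quasi-likelihood test, adjusted p = 0.021). This call ended without exposed replicate 1 (adjusted p = 0.068) or control replicate 1 (0.17), with a range of 0.0024 to 0.17 over all alternatives. The other 5 genes of this list, TYK2, STAT2, STAT4 and STAT6 among them, did not pass. Thus 1 of 6 tested genes of the list passed (16.7%), against 43.9% of all tested genes. TYK2, a kinase of interferon receptors, had a log2 fold change of 0.06 and STAT2, an interferon effector, one of -0.16.

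CISH (ENSG00000114737), the relative of the SOCS genes with 4 GAS matches in the sequence shown, had 17.0, 14.5 and 15.4 CPM in exposed libraries and 28.2, 30.4 and 25.6 CPM in control libraries. The groups were far apart, with a log2 fold change of -0.84 ± 0.10 (SE; edgeR quasi-likelihood test, adjusted p = 5.9e-08), close to that of SOCS3. SOCS3 made up 14.8% ± 0.38 of the summed SOCS3 and CISH level per length in exposed cells and 14.9% ± 1.09 in control cells (SD, n = 3 each), and these shares overlapped. Of the 4 other family members, SOCS4 was lower (log2 fold change -0.29; adjusted p = 0.028), SOCS7 higher (0.20; adjusted p = 0.034), and SOCS5 and SOCS6 did not pass. With CISH, 3 of the 5 genes of this list passed (60%), against 43.9% of all tested genes. The call of SOCS4 ended without exposed replicate 1 (adjusted p = 0.23), control replicate 1 (0.069) or control replicate 3 (0.15). That of SOCS7 ended without exposed replicate 2 (adjusted p = 0.17), control replicate 2 (0.055) or control replicate 3 (0.17). Over all alternatives the adjusted p ranged from 0.0051 to 0.23 for SOCS4 and from 0.01 to 0.17 for SOCS7.

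Further negative regulators were higher in 5 of 13 cases and lower in 3 (61.5%), against 43.9% of all tested genes. Their changes were less than 0.6 on the log2 scale. PIAS4, a SUMO ligase that restrains STAT proteins, averaged 56.5 ± 0.246 CPM in exposed cells and 37.5 ± 2.28 CPM in control cells (SD, n = 3 each; edgeR quasi-likelihood test, adjusted p = 7.3e-07). The ubiquitin ligases CBL and CBLB rose by 0.51 and 0.60 on the log2 scale, while PTPN1, a phosphatase of JAK2, averaged 69.9 ± 2.98 CPM in exposed cells and 85.1 ± 2.14 CPM in control cells (adjusted p = 0.0031). The remaining calls, named after their values were seen, were PIAS1 and PTPN6 higher and PIAS2 and PIAS3 lower. The calls of PIAS1, PTPN6 and PIAS2 were weak, and leaving out single libraries ended them at adjusted p of up to 0.10 for PIAS1 (control replicate 2), 0.13 for PTPN6 (exposed replicate 1) and 0.22 for PIAS2 (control replicate 1). With no low-count filter PTPN6 (0.061) and PIAS2 (0.065) did not pass, nor did PIAS2 under DESeq2 (0.05). The number higher was 3 without exposed replicate 1, exposed replicate 3 or control replicate 1.

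Adaptors and side kinases of the receptor included IRS2, the gene with the largest rise of the 9 lists. In this list 4 of 17 were higher and 3 lower (41.2%), against 43.9% of all tested genes. IRS2, an insulin receptor substrate that JAK2 can also phosphorylate, had 20.7, 27.4 and 23.3 CPM in exposed libraries and 4.45, 4.52 and 5.13 CPM in control libraries, a 5.05-fold rise (adjusted p = 8.4e-16). GAB2, a docking protein for the phosphatase PTPN11 and for PI3 kinase, averaged 150 ± 4.79 CPM in exposed cells and 59.4 ± 5.41 CPM in control cells (SD, n = 3 each; edgeR quasi-likelihood test, adjusted p = 5.9e-15). SHC1, which links receptors to the RAS pathway, averaged 345 ± 4.52 CPM in exposed cells and 242 ± 7.45 CPM in control cells. VAV3, a guanine nucleotide exchange factor, averaged 81.4 ± 3.66 CPM in exposed cells and 130 ± 10.4 CPM in control cells. FYN was also higher and SOS1 and PPIA lower, named after their values were seen. The call of PPIA ended without exposed replicate 2 (adjusted p = 0.20), exposed replicate 3 (0.15), control replicate 2 (0.08) or control replicate 3 (0.13), with a range over its alternatives up to 0.20, and it also ended with DESeq2-type size factors (0.066) and with no low-count filter (0.054). The number of adaptors lower was 5 under the stricter low-count filter and with protein-coding genes alone.

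**Figure D4:**
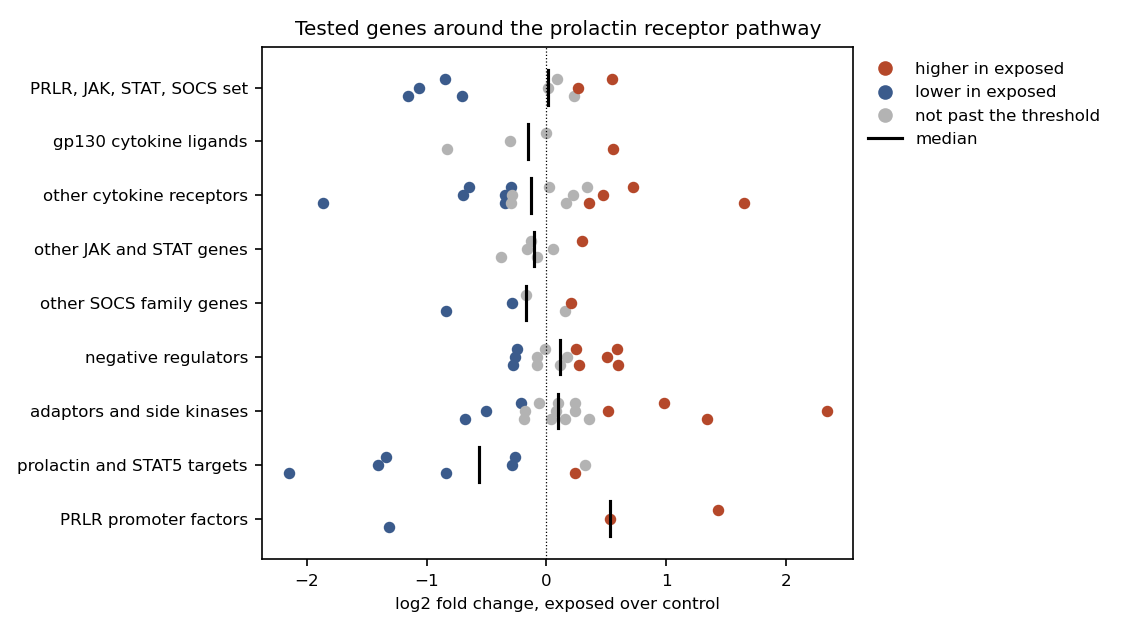
Log2 fold change, exposed over control, of every tested gene of the set and of 8 lists of related genes, 1 point per gene, red for higher and blue for lower in exposed cells and grey for genes that did not pass; black bars give the median. The list of prolactin and STAT5 targets has its median at -0.57 and the set itself at 0.01.

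Of 14 genes known as targets of prolactin or STAT5, 8 had enough reads to be tested. Of these, 6 were lower, 1 was higher and 1 did not pass. The lower genes include CISH, already counted above with the SOCS family. Thus 87.5% passed, against 43.9% of all tested genes. The list was chosen with earlier results of these data known, so this share is not independent of them. The median log2 fold change was -0.57. MYC, which many other signals also control, had 11.2, 7.59 and 8.76 CPM in exposed libraries and 40.7, 37.7 and 43.8 CPM in control libraries. CCND1, the cell cycle gene for cyclin D1, had 43.3, 43.9 and 44.3 CPM in exposed libraries and 113, 103 and 117 CPM in control libraries. PIP, the prolactin-induced protein, a secreted product also controlled by the androgen receptor, had 69.7, 58.9 and 84.2 CPM in exposed libraries and 197, 181 and 185 CPM in control libraries. In each of these 3 genes the groups were widely apart, with log2 fold changes of -2.15 for MYC, -1.34 for CCND1 and -1.40 for PIP (edgeR quasi-likelihood test, adjusted p = 6.5e-16 for MYC, 5.1e-15 for CCND1 and 1.7e-12 for PIP).

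ELF5 and BCL2L1 were also lower, by 0.29 and 0.26 on the log2 scale, and both calls depended on single libraries: ELF5 did not pass without exposed replicate 1 (edgeR quasi-likelihood test, adjusted p = 0.073) or control replicate 1 (0.063), and BCL2L1 did not pass without exposed replicate 3 (0.19). BCL6, a repressor that STAT5 is known to switch off, was the member that was higher (log2 fold change 0.24; adjusted p = 0.032). Its call ended without exposed replicate 3 (adjusted p = 0.13), control replicate 2 (0.14) or control replicate 3 (0.077). The kinase gene PIM1, at a log2 fold change of 0.32, did not pass (adjusted p = 0.077), but did without exposed replicate 1 (0.044) or control replicate 1 (0.048). The milk protein genes CSN1S1, CSN2, CSN3 and LALBA and the gene TNFSF11 had no read in any library, and IGF1 had 1 read in exposed replicate 3.

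**Figure D5:**
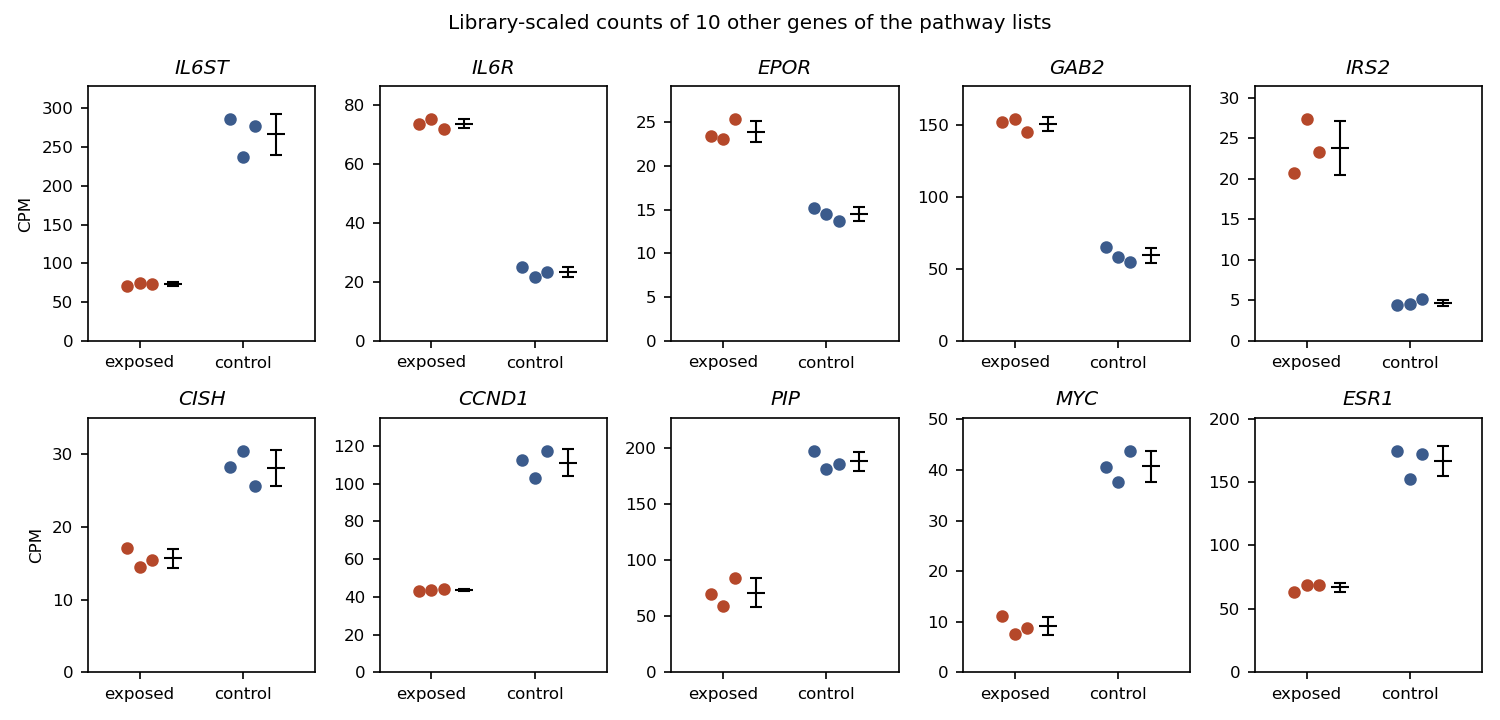
Library-scaled counts (CPM) of 10 genes of the pathway lists in each library, exposed on the left (red) and control on the right (blue) of each panel, each axis starting at 0, with the mean and SD of 3 libraries. IL6R, EPOR, GAB2 and IRS2 are higher in all exposed libraries, and IL6ST, CISH, CCND1, PIP, MYC and ESR1 lower.

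Of factors known to act at the PRLR promoters, 3 were listed and each passed, in a comparison in which 43.9% of all tested genes passed. ESR1, the estrogen receptor, had 63.2, 69.2 and 69.0 CPM in exposed libraries and 175, 153 and 172 CPM in control libraries. CEBPB averaged 183 ± 18.8 CPM in exposed cells and 67.8 ± 10.8 CPM in control cells, and SP1 averaged 155 ± 5.15 CPM in exposed cells and 107 ± 6.74 CPM in control cells (SD, n = 3 each). Thus ESR1 fell with PRLR while CEBPB and SP1 rose (edgeR quasi-likelihood test, adjusted p = 6.7e-15, 4.8e-12 and 6.4e-07 for ESR1, CEBPB and SP1).

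Totals ran from 30970218 to 36878525 reads in exposed libraries and from 34696540 to 36024874 reads in control libraries. CYP1A1, an enzyme induced through AhR, was 1342-fold higher in exposed cells, with no overlap of the groups. All 8 luminal epithelial markers were detected in every library, and their summed level was 7805 to 9853 CPM in exposed libraries and 18330 to 20360 CPM in control libraries. Most of that sum was keratin RNA: KRT8 averaged 3301 CPM, KRT18 883 CPM and KRT19 3473 CPM in exposed cells, against 8154, 1846 and 7504 CPM in control cells. ESR1, FOXA1, KRT8, KRT18 and KRT19 were lower, and GATA3, EPCAM and CDH1 did not pass. Of 12 markers of other cell types or of basal cells, 6 had reads in every library, and their summed level, most of it COL1A1, was 74.3 to 76.7 CPM in exposed libraries and 65.1 to 74.2 CPM in control libraries. The defining markers CD68 and PECAM1 had at most 2 reads in a library. The part of these keratin, ESR1 and FOXA1 differences in the falls of PRLR, GHR and JAK1 was not tested.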

How the data were processed

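Libraries were sequenced on an Illumina instrument after TRIzol extraction and NEBNext Ultra preparation, per the labels' protocols. The authors deposited whole-number read counts per gene for 6 libraries, and the submitters' processing notes name the genome build GRCh38. The sources used here name no aligner, counter or strand setting. Gene lengths and coordinates in the file were deposited by the authors as other columns; for all 10 members they were the same as exon unions and bounds in GENCODE 29.

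Groups came from the sample titles. The test was edgeR 4.0.16 (R 4.3.3). Genes with low counts were removed by filterByExpr, at a minimum count of 10 and a minimum total of 15, which left 17337. Libraries were scaled by TMM, with factors from 0.948 to 1.04. A quasi-likelihood model, fitted robustly, gave exposed over control, with Benjamini-Hochberg adjustment over all tested genes and a threshold of 0.05. The SE is the log2 fold change over the square root of F, and intervals use the fit's degrees of freedom. RPKM divides scaled counts by the deposited length. The fit was tested on simulated data. No libraries were identical. Library totals, 30970218 to 36878525, limit the precision of genes with few reads.

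Alternatives were DESeq2-type size factors, other low-count filters, DESeq2 1.42.0, limma-voom (limma 3.58.1), a replicate block, leaving out each library, leaving out mitochondrial transcripts, and protein-coding genes alone. Named are all members, up to 4 called genes of each list by smallest adjusted p, CISH, PRL, CYP1A1, and the 4 genes nearest to PRLR (log2 CPM with a pseudocount of 0.5), of which 1 is not reported here. Members, lists and motifs were chosen with earlier results of these data known.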

Additional observations from a re-analysis of the deposited data

How the results depend on the processing

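The 6 calls among the members (2 higher, 4 lower) held under all 14 alternatives, with log2 fold changes of -1.25 to -1.08 for PRLR, -1.16 to -1.01 for GHR, -0.79 to -0.66 for JAK1, 0.44 to 0.63 for STAT5A, 0.25 to 0.29 for STAT3 and -0.93 to -0.79 for SOCS3. JAK2, STAT5B and SOCS1 passed under none of the alternatives in which they were tested. SOCS1 changed sign when libraries were left out, its log2 fold change running from -0.21 to 0.38, and its few reads limit it; under the stricter low-count filter it was not tested. The number of all genes called ran from 6262 to 7637 and that of the list genes from 29 to 41, against 7610 and 39. No pairing by replicate number was seen: deviations from the group means correlated at -0.13, -0.12 and 0.01 for replicates 1 to 3. No sample correlated best with its own number. With 3 libraries per group this check cannot decide whether the libraries were handled in pairs. With the replicate number as a block, 6779 genes and 29 list genes were called, and the log2 fold changes of the members, such as -1.16 for PRLR, kept their calls. Under that block 10 list genes no longer passed, CLCF1, SOCS4, SOCS7, BCL6, CNTFR, LEPR, PTPN6, PIAS1, PIAS2 and PPIA, with adjusted p of 0.052 (SOCS4) to 0.12 (PPIA). The cause of these changes was not tested.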
